A study of Homo sapiens with 9 samples.

Results

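HRAS, NRAS, RRAS, RRAS2 and MRAS were followed in 3 related human breast epithelial cell lines. The genes were taken by symbol from the gene table and make up 5 of its 62666 genes. Their 35 transcripts, of 252876 in the transcript table, were taken by gene identifier. All 5 genes passed the filter on low counts, which 17910 genes passed in all.

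MCF10A is a non-tumorigenic line of mammary epithelium. MCF10AT1 is a premalignant derivative made by introducing a mutated HRAS gene into MCF10A cells, and MCF10Ca1a is a malignant line of the same lineage, which also carries the introduced HRAS. The labels name the lines only and say nothing of the introduced gene, its promoter or its copy number, so the counts of HRAS here are the sum of the cell's own gene and any introduced copy. Each line is a single established line. It was sequenced in 3 libraries of polyadenylated RNA, called replicates 1 to 3, and nothing in the labels says that they came from separate cultures, so p-values measure the spread between these libraries. All lines grew in the same medium with insulin, epidermal growth factor, hydrocortisone and cholera toxin, but MCF10AT1 had 2.5% horse serum and the other lines had 5%. Line and serum therefore cannot be told apart in a comparison that includes MCF10AT1.

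RAS proteins are small GTPases that switch between an active form bound to GTP and an inactive form bound to GDP. Exchange factors load them with GTP, GTPase-activating proteins switch them off, and in the active form they recruit effectors such as the RAF kinases, which lead to the MAP kinases, the PI3 kinases and the RAL exchange factors. HRAS and NRAS are classical oncogenes of this family. RRAS, RRAS2 (also called TC21) and MRAS are related GTPases that share several of these effectors, and MRAS also forms a complex with SHOC2 and the phosphatase PP1 that acts on RAF.

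Library totals ran from 62898823 to 69508842 counts in MCF10A and MCF10AT1 and from 32930503 to 35243012 counts in MCF10Ca1a. Each of the 7 epithelial markers reached 1 TPM (a level per transcript length, scaled to the same total in every library) in at least 1 library. Their summed levels were 1796 to 3055 TPM. Of the 12 fibroblast, blood and endothelial markers, 8 stayed under 1 TPM in every library. Summed levels reached 31.5 TPM for the fibroblast list in MCF10AT1, 9.41 TPM for the blood list in MCF10A and 20.8 TPM for the endothelial list in MCF10Ca1a. Their part in the results was not tested.

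HRAS rose at each step. Its level was 43.0, 40.8 and 39.1 CPM in MCF10A, 99.1, 99.6 and 94.3 CPM in MCF10AT1, and 146, 141 and 149 CPM in MCF10Ca1a, where CPM is the count scaled to a common library size with TMM factors. Every MCF10AT1 library was above every MCF10A library and below every MCF10Ca1a library. The rise was 2.38-fold in MCF10AT1 against MCF10A (log2 change 1.25 ± 0.05 SE, adjusted p = 1.65e-10) whereas it was 1.49-fold in MCF10Ca1a against MCF10AT1 (log2 change 0.57 ± 0.05 SE, adjusted p = 1.51e-07), by the quasi-likelihood test of edgeR, with p adjusted after Benjamini and Hochberg for every gene tested. From MCF10A to MCF10Ca1a it was 3.55-fold. In such bulk libraries, fewer cells with a transcript and less of it per cell cannot be told apart. The second step was smaller than the first by 0.68 on the log2 scale (difference -0.68, 95% interval -0.87 to -0.49, edgeR adjusted p = 1.05e-05), although this difference missed the threshold on the TPM scale (-0.21, limma adjusted p = 0.21). That scale moved the median difference between the steps over all genes from -0.09 to 0.23, and relative to it HRAS was at -0.45.

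NRAS fell slightly. Its level was 150.1, 157 and 176 CPM in MCF10A, 138, 139.9 and 139 CPM in MCF10AT1, and 122, 122 and 118 CPM in MCF10Ca1a. The lines did not overlap, and MCF10A had the widest spread. In MCF10AT1 it was lower by 1.16-fold than in MCF10A (log2 change -0.22, edgeR adjusted p = 0.00588), in MCF10Ca1a by 1.15-fold than in MCF10AT1 (-0.20, adjusted p = 0.00689) and by 1.33-fold than in MCF10A (-0.42, adjusted p = 1.72e-05). No difference between the steps was detected (0.01, 95% interval -0.21 to 0.23, edgeR adjusted p = 0.91), while on the TPM scale the difference passed the threshold (0.42, limma adjusted p = 0.00194). On the TPM scale the direction of the second step flipped, with means of 78.5, 61.1 and 63.9 TPM in the 3 lines in that order (log2 change 0.06, limma adjusted p = 0.27). That scale moved the median of all genes tested to 0.13 in this comparison, from -0.04 on counts, and relative to that median NRAS was at -0.07.

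RRAS, which is known for its role in integrin function and cell adhesion, rose at each step. It stood at 26.1, 24.1 and 25.3 CPM in MCF10A, at 32, 33.8 and 31.3 CPM in MCF10AT1 and at 55.8, 53.0 and 54.9 CPM in MCF10Ca1a, with no overlap between lines. The rise was 1.29-fold at the first step (log2 change 0.36, edgeR adjusted p = 3.43e-05) and 1.69-fold at the second (0.75, adjusted p = 8.77e-09), and 2.17-fold over both. Unlike HRAS, it rose more at the second step than at the first (difference 0.39, 95% interval 0.20 to 0.58, edgeR adjusted p = 0.00157).

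RRAS2 moved in both directions. Its level was 78.4, 79.4 and 82.9 CPM in MCF10A, 97.5, 103 and 97.7 CPM in MCF10AT1, and 61.2, 63.4 and 60.4 CPM in MCF10Ca1a. MCF10AT1 was highest in every library and MCF10Ca1a lowest. The rise to MCF10AT1 was 1.24-fold (log2 change 0.31, edgeR adjusted p = 7.90e-05), and on the TPM scale it missed the threshold (0.12, limma adjusted p = 0.091). MCF10Ca1a was lower by 1.61-fold than MCF10AT1 (-0.69, edgeR adjusted p = 1.39e-08) and by 1.3-fold than MCF10A (-0.38, adjusted p = 6.84e-06). The steps differed by -0.997 (95% interval -1.17 to -0.82, edgeR adjusted p = 1.22e-07).

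MRAS was the least abundant of the 5 and was almost lost in MCF10Ca1a. It measured 5.49, 5.69 and 5.39 CPM in MCF10A and 4.62, 4.95 and 4.91 CPM in MCF10AT1, then 0.14, 0.089 and 0.14 CPM in MCF10Ca1a, which stand for 5, 3 and 5 counts. The MCF10Ca1a libraries lay far below all others. MRAS fell by 5.26 on the log2 scale from MCF10AT1 (38.3-fold lower, edgeR adjusted p = 5.65e-12) and by 5.45 from MCF10A (43.8-fold lower, adjusted p = 2.19e-12). Between MCF10AT1 and MCF10A the log2 change was -0.19 (95% interval -0.39 to 0.004, edgeR adjusted p = 0.083), which did not pass the test. The steps differed by -5.06 (edgeR adjusted p = 3.74e-10).

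**Figure D1:**
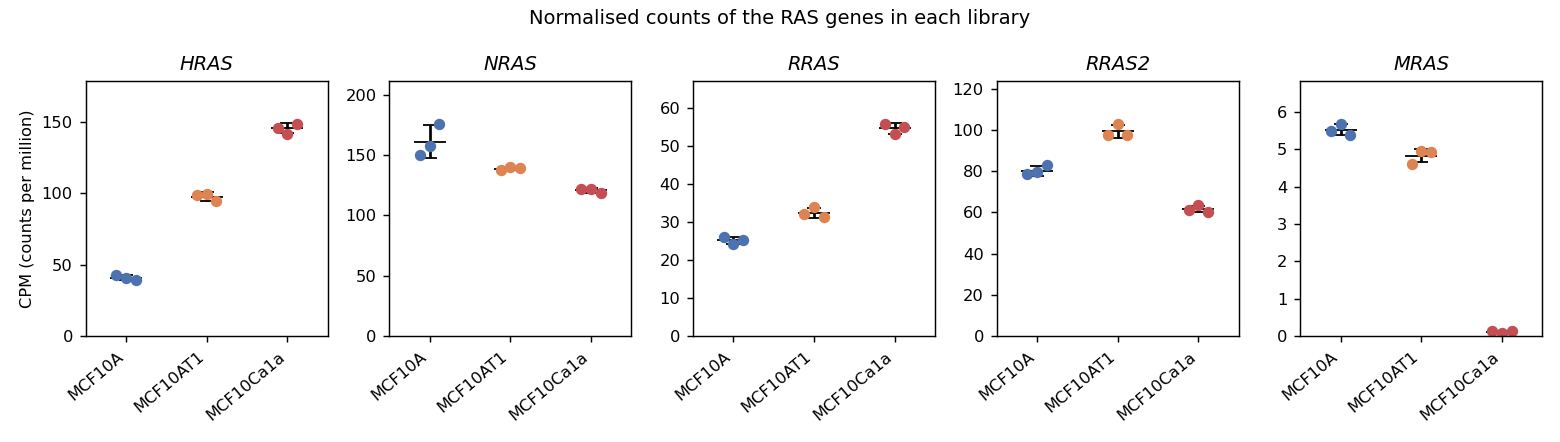
Normalised counts (CPM, linear axes from 0, each gene on its own scale) of the 5 genes in the 9 libraries. Points are libraries, and the bar with its whiskers is the mean ± SD of 3; HRAS climbs from 39.1–43.0 CPM in MCF10A to 141–149 CPM in MCF10Ca1a, while MRAS drops to 0.089–0.14 CPM there.

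The 5 genes thus followed different courses, and the plot of their log2 changes shows each with its interval. Most genes differed between these lines, so a call is common. In MCF10AT1 against MCF10A, 4 of the 5 genes were called, where 61.6% of all genes tested were. All 5 were called in MCF10Ca1a against MCF10AT1 (78.4% of all genes) and in MCF10Ca1a against MCF10A (80.9%), and 4 of 5 in the difference between the steps (68.7%). These shares are near the background and say little by themselves. By size, the HRAS change in MCF10AT1 was larger than that of 85.1% of the genes tested, its change from MCF10AT1 to MCF10Ca1a larger than that of 39.9%, and the MRAS change at that step larger than that of 97.3%.

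**Figure D2:**
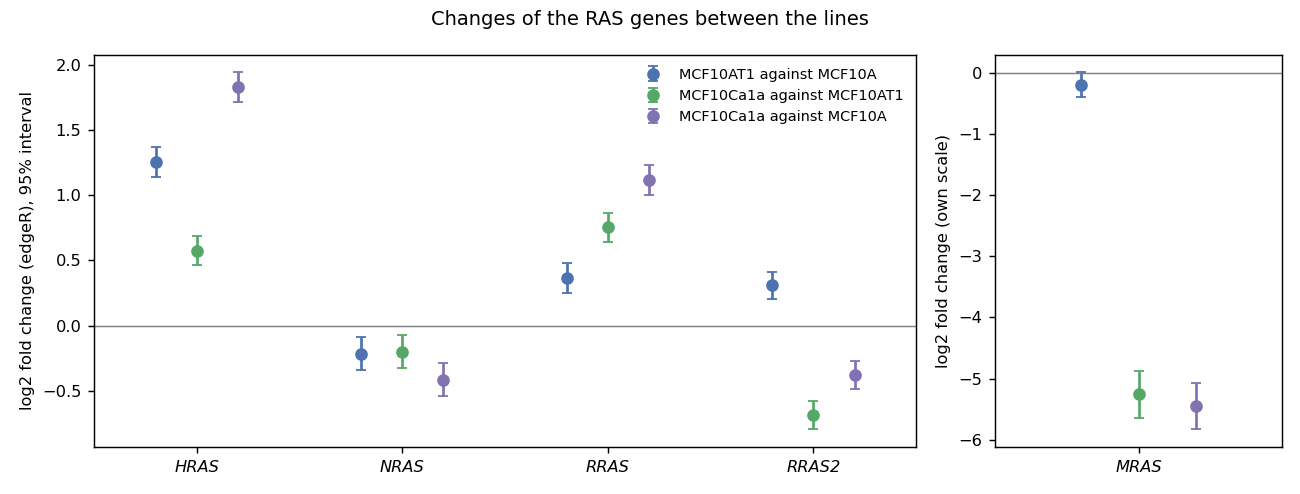
Log2 fold changes of the 5 genes in the 3 comparisons (edgeR), with 95% intervals; MRAS has its own axis. HRAS and RRAS are above 0 in all 3 comparisons, NRAS is below 0 in all 3, and RRAS2 is at 0.31 in MCF10AT1 against MCF10A but at -0.69 in MCF10Ca1a against MCF10AT1.

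Per transcript length, the genes changed places. In MCF10A the order was RRAS2 (99.5 ± 0.27 TPM, SD, n = 3), NRAS (78.5 ± 2.72), HRAS (44.0 ± 5.05), RRAS (33.7 ± 3.01) and MRAS (2.19 ± 0.048). In MCF10AT1 HRAS (98.4 ± 5.64 TPM) passed NRAS (61.1 ± 1.33) and stood just under RRAS2 (108 ± 4.73), with RRAS at 39.4 ± 1.95 and MRAS at 1.85 ± 0.36. In MCF10Ca1a HRAS led with 189 ± 1.69 TPM, ahead of RRAS2 (85.8 ± 3.87), RRAS (79.1 ± 1.45), NRAS (63.9 ± 1.01) and MRAS (0.14 ± 0.094). Neighbours in these orders did not overlap between libraries in any line. The closest pairs were HRAS and RRAS2 in MCF10AT1, where the highest HRAS library had 103.2 TPM and the lowest RRAS2 library 103.6 TPM, and RRAS and RRAS2 in MCF10Ca1a, at up to 80.7 TPM and from 81.6 TPM. These orders compare genes within the same libraries and were not tested. HRAS made up 17.0% ± 1.56 of the summed TPM of the 5 genes in MCF10A, 31.8% ± 0.43 in MCF10AT1 and 45.2% ± 0.55 in MCF10Ca1a (SD, n = 3), while the sum itself went from 258 to 309 and 418 TPM.

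HRAS lies at chr11:532242-537287 on the minus strand (GENCODE 29, GRCh38). Its transcripts differ mainly in 3 places: the first exon, an alternative exon of 82 bases near the end of the coding region (chr11:533277-533358), and an intron of 108 bases in the 3′ untranslated region (chr11:532523-532630) that is spliced out in some and kept in others. When the alternative exon is skipped the reading frame holds 189 codons and gives the full-length p21 protein. When it is included the frame ends inside it after 170 codons and gives the shorter form known as p19, which lacks the lipid-modified end that anchors p21 to the membrane. The sequences at this choice are shown because the lines differed there. They were read from the GENCODE 29 transcripts, 5′ to 3′ on the coding strand. In the first pair, capitals mark the exon that follows the shared upstream exon, and in the last, capitals mark the stop codon.
Skipping junction (HRAS-201; upstream exon ends at 533453, next exon starts at 532755): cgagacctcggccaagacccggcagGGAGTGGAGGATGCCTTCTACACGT
Inclusion junction (HRAS-211; upstream exon ends at 533453, alternative exon starts at 533358): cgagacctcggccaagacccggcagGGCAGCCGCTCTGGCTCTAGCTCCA
Coding part of the alternative exon with its stop codon (chr11:533296-533358): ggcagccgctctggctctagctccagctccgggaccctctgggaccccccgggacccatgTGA

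The transcript table lists 10 HRAS transcripts, 6 of them in the same version as GENCODE 29, and HRAS-201 in a newer one. HRAS-201, which skips the alternative exon and splices the last intron, carried most of the gene in every library. It was at 36.1, 30.3 and 28.3 TPM in MCF10A, at 76.8, 74.6 and 69.0 TPM in MCF10AT1, and at 115, 107 and 115 TPM in MCF10Ca1a, with no overlap. Its counts rose by a log2 change of 1.36 ± 0.08 SE in MCF10AT1 against MCF10A (edgeR adjusted p over all transcripts = 3.21e-05) and by 0.34 ± 0.07 SE in MCF10Ca1a against MCF10AT1 (adjusted p = 0.00917). The second of these missed the threshold without MCF10AT1 replicate 3 (0.25, adjusted p = 0.054) and without a filter on low counts (0.26, adjusted p = 0.065). Of all transcripts tested, 13.1% were called in MCF10AT1 against MCF10A, 31.8% in MCF10Ca1a against MCF10AT1 and 35.9% in MCF10Ca1a against MCF10A.

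HRAS-203 skips the alternative exon too, but starts at a downstream first exon and keeps the last intron. It was at 4.11, 3.29 and 1.13 TPM in MCF10A, 10.2, 12 and 11.2 TPM in MCF10AT1, and 13.7, 16.3 and 16.9 TPM in MCF10Ca1a. It rose in MCF10AT1 against MCF10A (log2 change 2.13, edgeR adjusted p = 0.00917), and its change from MCF10AT1 to MCF10Ca1a was 0.24 (adjusted p = 0.68). In CPM, HRAS-201 made up 84.8% and HRAS-203 16.6% of the gene's gain from MCF10A to MCF10AT1, with the remaining transcripts slightly negative in sum.

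HRAS-205 also codes for p21. It has the same kind of first exon as HRAS-201 and keeps the last intron. It was listed at 0 counts in all 6 libraries of MCF10A and MCF10AT1, and at 792, 647 and 632 counts (23.9, 21.3 and 19.1 TPM) in MCF10Ca1a. Against a floor of 3 counts per library it was at least 427-fold higher in MCF10Ca1a than in MCF10AT1 and at least 435-fold higher than in MCF10A. Such floors allow for counting error alone, because the labels name no molecular identifiers, by which repeated reads could be told from separate molecules. Of the gain of the gene from MCF10AT1 to MCF10Ca1a in CPM, HRAS-205 made up 41.4% and HRAS-201 42.9%. The files give no measure of how well reads can be told apart between HRAS-205, HRAS-203 and HRAS-201, which share most of their sequence, so an exact 0 may be a failed estimate.

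HRAS-211 includes the alternative exon and is annotated as a target of nonsense-mediated decay, the pathway that removes transcripts with early stop codons. It was at 5.91, 4.94 and 4.12 TPM in MCF10A, 2.74, 3.16 and 2.54 TPM in MCF10AT1, and 2.08, 4.76 and 0.81 TPM in MCF10Ca1a, where the replicates were far apart and reached into the range of MCF10A. Its level change in MCF10Ca1a against MCF10A did not pass the test (log2 change -1.11, edgeR adjusted p = 0.14), and did without MCF10Ca1a replicate 2 (-1.91, adjusted p = 0.011). The shorter fragments HRAS-209 (485 bases) and HRAS-210 (167 bases) carry no annotated coding region. HRAS-209 was at 0.31, 0.86 and 0.57 TPM in MCF10A and at 12.2, 13.1 and 13.6 TPM in MCF10Ca1a, and rose from MCF10AT1 (log2 change 3.01, edgeR adjusted p = 0.00108). HRAS-210 was at 15.5 to 17.2 TPM in MCF10Ca1a on only 14.2 to 16.4 counts per library, since so short a transcript gives a high TPM for few reads. Together this pair held 15.4% to 15.9% of the HRAS TPM in MCF10Ca1a but 2.98% to 3.23% of its counts. Without it the HRAS TPM was 42.5 ± 4.85 in MCF10A, 90.9 ± 3.76 in MCF10AT1 and 159 ± 1.90 in MCF10Ca1a (SD, n = 3), so that the ratio of MCF10Ca1a to MCF10A was 3.74 in place of 4.29. The other 4 transcripts each stayed under 5% of the gene's TPM in the mean of every line.

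**Figure D3:**
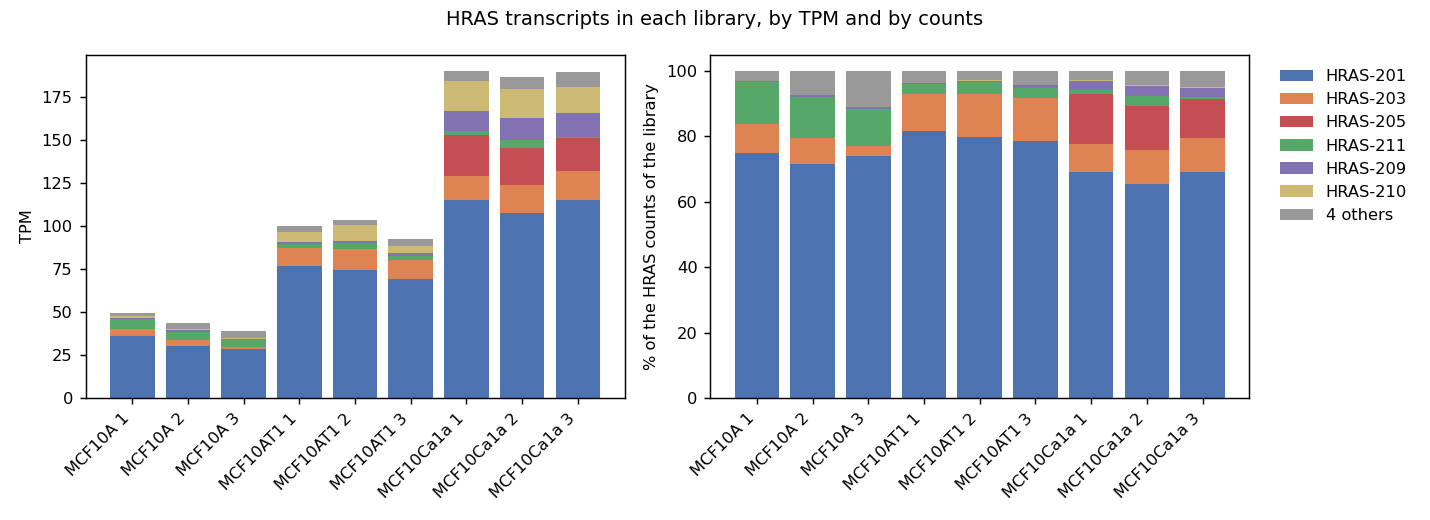
HRAS transcripts in the 9 libraries, as stacked TPM (left) and as the percent of the library's HRAS counts (right). HRAS-201 fills most of every bar, HRAS-205 appears in the MCF10Ca1a libraries only, and HRAS-210 takes 15.5 to 17.2 TPM there but hardly shows among the counts.

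Shares within the gene were tested by limma, with each transcript's TPM divided by that of the gene's other transcripts on a log2 scale, over 49547 transcripts, of which 2.67% were called in MCF10AT1 against MCF10A, 21.1% in MCF10Ca1a against MCF10AT1 and 26.7% in MCF10Ca1a against MCF10A. In MCF10AT1 against MCF10A no change in the share of HRAS-201 was detected (log2 ratio 0.23 ± 0.16 SE, limma adjusted p = 0.53). That share was 69.6% to 73.2% of the TPM in MCF10A and 72.3% to 76.9% in MCF10AT1. The only HRAS call in that comparison was HRAS-205 (adjusted p = 0.014), which was at 0 in both lines, so that its ratio reflects the rest of the gene alone. That call was lost without MCF10A replicate 2 or MCF10AT1 replicate 1 or 2 (adjusted p from 0.056 to 0.061). In MCF10Ca1a the share of HRAS-201 was lower, at 57.5% to 60.8% of the TPM (log2 ratio -0.998, limma adjusted p = 0.00439, against MCF10AT1), and against MCF10A this call was lost when counts replaced TPM (-0.39, adjusted p = 0.088, from -0.77, adjusted p = 0.00987). The share of HRAS-211 fell from 10.5% to 12% of the TPM in MCF10A to 0.43% to 2.55% in MCF10Ca1a (log2 ratio -3.50, limma adjusted p = 0.00304). In MCF10AT1 it was at 2.74% to 3.06% (-2.09 against MCF10A, adjusted p = 0.096), which passed the threshold without MCF10Ca1a replicate 2 or 3 (adjusted p = 0.032 and 0.028) and with TPM + 1 (-1.92, adjusted p = 0.018).

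Summed over transcripts, the rise of HRAS lay in the forms that skip the alternative exon. The skipping forms were at 36.1, 32.8 and 30.3 CPM in MCF10A, 92.3, 93.1 and 87.2 CPM in MCF10AT1, and 139, 131 and 140.2 CPM in MCF10Ca1a. The inclusion forms were at 6.84, 8.02 and 8.78 CPM in MCF10A, 6.60, 6.21 and 6.88 CPM in MCF10AT1, and 5.76, 9.90 and 7.90 CPM in MCF10Ca1a, with ranges that overlapped between all 3 lines. The inclusion forms therefore made up 19.1% ± 3.35 of these transcripts by TPM in MCF10A, 6.82% ± 0.36 in MCF10AT1 and 5.30% ± 0.94 in MCF10Ca1a (SD, n = 3). By TPM the lines did not overlap (15.5% to 22.1%, 6.49% to 7.20% and 4.37% to 6.25%), and each exact two-sided permutation test of 3 against 3 gave the smallest p it can, 0.1. By counts MCF10A stood apart again (15.9% to 22.5%), but MCF10AT1 (6.25% to 7.31%) and MCF10Ca1a (3.97% to 7.05%) overlapped, so those lines are separated on TPM only. They also overlapped on TPM when HRAS-205 was left out (5.07% to 7.15% in MCF10Ca1a, exact two-sided permutation p = 0.3), while MCF10A stayed apart from both.

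Forms that keep the last intron were at 5.37 ± 0.65 CPM in MCF10A, 15.4 ± 1.04 CPM in MCF10AT1 and 39.3 ± 0.88 CPM in MCF10Ca1a (SD, n = 3), with no overlap between the lines. They made up 11.5% to 16.0% of the TPM in MCF10A and 14.6% to 17.3% in MCF10AT1, which overlapped (exact two-sided permutation p = 0.2), and 26.8% to 27.8% in MCF10Ca1a, above all other libraries (exact p = 0.1). That higher share rested on HRAS-205, whose 0s in the other lines may be failed estimates. Without HRAS-205 the share in MCF10Ca1a was 14.0% to 17.7%, which overlapped both other lines (exact two-sided permutation p = 1.0 against MCF10AT1 and 0.3 against MCF10A), and the level there was 19.5 ± 3.06 CPM, which overlapped MCF10AT1. The downstream first exon of HRAS-203 made up 3.09% to 8.74%, 11.1% to 13.1% and 8.69% to 10.7% of the TPM with either first exon in the 3 lines in that order. MCF10A replicate 3 was low in this measure. Without HRAS-205 the share in MCF10Ca1a was 10.2% to 12.2%, which overlapped MCF10AT1 (exact two-sided permutation p = 0.5) and no longer overlapped MCF10A (exact p = 0.1).

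**Figure D4:**
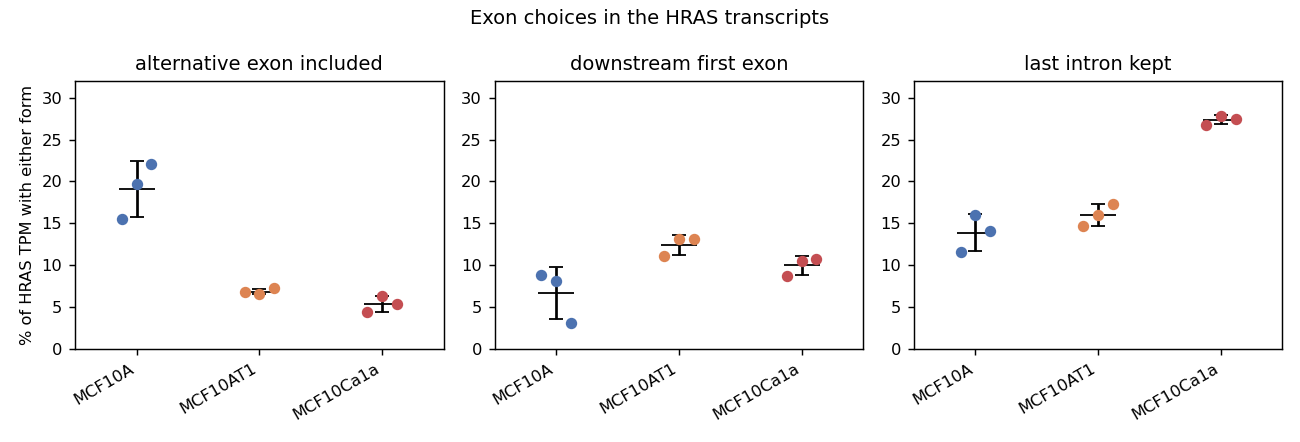
Percent of HRAS TPM in transcripts that include the alternative exon, use the downstream first exon or keep the last intron, per library (points) with the mean ± SD of 3. Inclusion is at 15.5% to 22.1% in MCF10A and at or under 7.20% in the other lines, and the kept intron is at 26.8% to 27.8% in MCF10Ca1a, or 14.0% to 17.7% without HRAS-205.

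On counts neither of the nearest tested genes on either side of HRAS was called higher at a step. LRRC56 starts 240 bases from the start of HRAS and changed by a log2 value of -0.41 (edgeR adjusted p = 0.23) and 0.10 (adjusted p = 0.78) at the 2 steps. RNH1, an inhibitor of ribonucleases on the other side, was lower in MCF10AT1 (-0.21, edgeR adjusted p = 0.012) and changed by 0.05 from MCF10AT1 to MCF10Ca1a (adjusted p = 0.47). The first call was lost without MCF10AT1 replicate 3 (-0.17, edgeR adjusted p = 0.058) and with limma on log2(TPM + 1) without a filter (-0.33, adjusted p = 0.051). At the second step RNH1 was called higher with limma on log2(TPM + 1) (0.28, adjusted p = 0.029) and log2(TPM + 0.1) (0.29, adjusted p = 0.044). Of the 24 tested genes that start within 250 kb of HRAS, 5 were higher and 12 lower in MCF10AT1 against MCF10A, where 29.8% of all genes tested were higher and 31.8% lower. Without MCF10A replicate 2 or MCF10AT1 replicate 2 or 3, 3 were higher. In MCF10Ca1a against MCF10A 7 were higher and 13 lower, where 39% of all genes were higher and 41.9% lower. With limma on the 3 TPM scales run, log2(TPM + 1) with and without a filter and log2(TPM + 0.1), 3 were higher in the first of these comparisons, and 7 were higher and 7 lower in the second. On counts their median log2 change was -0.23 in the first and -0.31 in the second, beside 0.00 and -0.05 over all genes.

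Around RRAS (chr19:49635292-49640201, minus strand) the neighbours were more often higher than lower in both comparisons with MCF10A. Of 25 tested genes, 18 were higher and 2 lower in MCF10AT1 against MCF10A, and 17 were higher and 5 lower in MCF10Ca1a against MCF10A, with a median of 0.66, beside the shares of all genes given above. SCAF1, a factor that links splicing and transcription, starts 1924 bases away and rose in MCF10AT1 against MCF10A (log2 change 0.40, edgeR adjusted p = 4.07e-04) and further in MCF10Ca1a (0.62 against MCF10AT1, adjusted p = 3.46e-06). Its first call was lost on all 3 TPM scales (0.19 to 0.20, limma adjusted p from 0.18 to 0.33). PRR12 on the other side was at 0.18 (edgeR adjusted p = 0.048) and 0.62 (adjusted p = 2.60e-06) at the 2 steps; its first value turned to -0.03 on the TPM scale. That first call was also lost when any library other than MCF10A replicate 1 or MCF10AT1 replicate 1 was left out (0.0954 to 0.19, adjusted p from 0.0501 to 0.24). In MCF10Ca1a against MCF10AT1 the same window held 11 higher and 11 lower genes, where 38% of all genes were higher and 40.3% lower. With limma on the 3 TPM scales 13 were higher there and 3 to 5 lower, and 11 or 12 in place of 18 were higher in MCF10AT1 against MCF10A.

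NRAS (chr1:114704469-114716894, minus strand) had 6 tested neighbours. In MCF10Ca1a against MCF10A 4 of them were higher, opposite to NRAS, and 2 did not pass the test, where 39% of all genes were higher and 41.9% lower. DENND2C, a near neighbour, was at -0.02 (edgeR adjusted p = 0.83; 0.19 on the TPM scale, limma adjusted p = 0.040). MRAS (chr3:138347648-138405534, plus strand) also had 6 tested neighbours, of which 2 were higher and 3 lower in MCF10Ca1a against MCF10A, with a median of -0.08. RRAS2 (chr11:14277926-14364506, minus strand) had only 2.

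In MCF10A and MCF10AT1 RRAS2 was carried mostly by a pair of transcripts, RRAS2-201 and RRAS2-202. In MCF10Ca1a RRAS2-210 held a mean of 23.4% of the gene's TPM, beside 18.6% for RRAS2-202. RRAS2-201, with 204 codons, was at 48.5, 41.2 and 41.3 TPM in MCF10A, 47.4, 52.2 and 46.3 TPM in MCF10AT1, and 44.4, 41.9 and 42.6 TPM in MCF10Ca1a. RRAS2-202, which is annotated with a shorter reading frame of 127 codons, was at 41.3, 43.8 and 43.1 TPM in MCF10A, 52.3, 49.8 and 49.2 TPM in MCF10AT1, and 21.4, 19.0 and 7.30 TPM in MCF10Ca1a, below all other libraries. RRAS2-202 fell in MCF10Ca1a against MCF10AT1 (log2 change -1.92, edgeR adjusted p = 0.00295), as did RRAS2-201 (-0.44, adjusted p = 0.00215); the difference between them was not tested. RRAS2-210, also of 127 codons, was at 0, 4.48 and 3.74 TPM in MCF10A, at 0 in all 3 MCF10AT1 libraries, and at 11.1, 20.2 and 29.4 TPM in MCF10Ca1a. Against the floor of 3 counts per library it was at least 228-fold higher in MCF10Ca1a than in MCF10AT1. That bound takes the 0s as measured, and they may be failed estimates, as for HRAS-205: within MCF10A it was at 0, 162 and 152 counts.

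Within MCF10Ca1a, RRAS2-210 was high where RRAS2-202 was low. Summed, the pair was at 32.5, 39.1 and 36.7 TPM there, 41.3 to 48.3 TPM in MCF10A and 49.2 to 52.3 TPM in MCF10AT1. In MCF10Ca1a the sum thus varied less between replicates than its parts, which was not so in the other lines. By share of the gene, RRAS2-202 fell in MCF10Ca1a against MCF10AT1 (limma log2 ratio -2.06, adjusted p = 0.017) and against MCF10A (-1.86, adjusted p = 0.021), and RRAS2-210 rose (adjusted p = 0.0059 and 0.047). Its ratio against MCF10AT1, where it was at 0, is set by the pseudocount and is not given. Against MCF10A it was 4.53, or 3.30 with TPM + 1. The calls against MCF10A were near the threshold. That of RRAS2-202 was lost without MCF10A replicate 1, 2 or 3 (adjusted p from 0.051 to 0.061), with ratios of -1.90, -1.83 and -1.84. That of RRAS2-210 was lost without MCF10AT1 replicate 1, 2 or 3 or MCF10Ca1a replicate 1, 2 or 3 (adjusted p from 0.071 to 0.12), with ratios from 4.11 to 4.97, with counts in place of TPM (6.20, adjusted p = 0.14), and with transcripts from 0.1 TPM (adjusted p = 0.059). Its ratio was 2.72 without MCF10A replicate 1 (adjusted p = 0.00912), the library of that line in which it was at 0. Against MCF10AT1, the call for RRAS2-202 was lost without MCF10AT1 replicate 1 or 3 (-2.02 and -2.04, adjusted p = 0.055 and 0.054). The fragment RRAS2-206 stayed between 3.89 and 6.87 TPM in all libraries.

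NRAS has a single listed transcript, and RRAS-201, with 218 codons, held at least 96.9% of the RRAS TPM in every library. MRAS-202, with 208 codons, held 51.3% to 77.7% of the MRAS TPM in the libraries of MCF10A and MCF10AT1. It was at 1.71, 1.57 and 1.27 TPM in MCF10A, 1.10, 1.16 and 1.23 TPM in MCF10AT1, and 0, 0 and 0.027 TPM in MCF10Ca1a. Its counts fell in MCF10Ca1a against MCF10A (edgeR adjusted p = 3.25e-04). The size of that fall is not given, since MCF10Ca1a held 0, 0 and 2.97 counts and the fitted log2 change went from -7.33 to -11.2 without MCF10Ca1a replicate 3. The other named MRAS transcripts rested on at most 5 counts per library in MCF10Ca1a and are not described, and MRAS shares were not tested, since the gene was under 1 TPM there.

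Some genes followed the course of a RAS gene closely. For HRAS, by the root-mean-square distance of centred log2 CPM over the 9 libraries, the most alike were BTG1 (0.065), an antiproliferative factor, TMC7 (0.068) and DUSP4 (0.071), a phosphatase of MAP kinases and a transcriptional output of ERK, beside a median of 0.90 over all genes. For NRAS they were SDHAF2 (0.025), NUP58 (0.041) and UBE2A (0.043), beside a median of 0.48. For RRAS they were SMOX (0.051), MT1F (0.051) and ECSIT (0.052), beside a median of 0.66. RRAS2 was closest to IPO7 (0.036), MRPS27 (0.037) and MDM2 (0.040), beside a median of 0.53. MRAS was closest to PDZD2 (0.11), AIF1L (0.16) and ZNF563 (0.20), beside a median of 2.38. These distances are descriptions over libraries that all the genes share.

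The regulators that load and unload RAS moved apart from one another. Of 8 tested exchange factors, 3 were higher and 1 lower in MCF10AT1 against MCF10A, and 4 were higher and 3 lower in MCF10Ca1a against MCF10A, with a median log2 change of 0.26. Of all genes tested, 29.8% were higher and 31.8% lower in the first of these comparisons and 39% higher and 41.9% lower in the second, so the counts of exchange factors that rose were near the background. SOS1, the exchange factor that couples growth factor receptors to RAS, was at 14.4, 15.5 and 32.2 mean TPM in the 3 lines and rose in MCF10Ca1a against MCF10A (log2 change 0.71 ± 0.05 SE, edgeR). RASGRP1 rose too, but only to 0.27 TPM. RASGRF1 fell (-1.33) from 0.40 TPM, and RAPGEF2, which acts on RAP GTPases, fell from 5.05 to 3.66 mean TPM (-0.58).

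GTPase-activating proteins switch RAS off. Of 8 tested, 6 were higher and 1 lower in MCF10AT1 against MCF10A, 4 higher and 3 lower in MCF10Ca1a against MCF10AT1, and 5 higher and 2 lower in MCF10Ca1a against MCF10A, with a median of 0.81. Of all genes 29.8%, 38% and 39% were higher and 31.8%, 40.3% and 41.9% lower in these comparisons. The 1 lower gene in MCF10AT1 was not called on length-scaled or scaled counts or on the TPM scales. RASAL1 went from 0.054 TPM in MCF10A to 3.21 TPM in MCF10AT1 and 7.96 TPM in MCF10Ca1a (edgeR log2 change 5.92 ± 0.12 SE at the first step and 0.80 ± 0.07 at the second). RASA4 went from 0.075 to 0.765 and 1.23 mean TPM (3.87 over both steps). Its change from MCF10AT1 to MCF10Ca1a did not pass the threshold (0.63, edgeR adjusted p = 0.0511). That held in 5 of 9 fits that each left out 1 library. RASA4 has near-identical copies, so its value is uncertain. RASA3 was at 4.87 and 4.38 mean TPM in MCF10A and MCF10AT1 and fell to 0.575 TPM in MCF10Ca1a (-3.22).

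Enzymes that attach lipids to RAS or turn it over formed the next list. Of 14 tested, 4 were higher and 7 lower in MCF10AT1 against MCF10A, and 1 was higher and 7 lower in MCF10Ca1a against MCF10A, with a median of -0.19. Of all genes 29.8% were higher and 31.8% lower in the first comparison and 39% higher and 41.9% lower in the second. The count of 1 higher gene depended on the processing. It was 4 without MCF10A replicate 3 and with DESeq2's size factors or its Wald test, 3 on length-scaled or scaled counts and with the replicate block, and 5 on the TPM scales, where 4 were lower in place of 7. The gene that rose in the latter on counts was ZDHHC9, part of the palmitoyltransferase of HRAS and NRAS, at 24.3 mean TPM in MCF10A, 18.4 in MCF10AT1 and 41.8 in MCF10Ca1a (log2 change 0.69 ± 0.07 SE against MCF10A, edgeR). FNTB, the beta subunit of farnesyltransferase, fell by 1.22 on the log2 scale. LZTR1, an adaptor for the ubiquitination of RAS proteins, fell by 1.21.

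Of 20 tested effectors and scaffolds, 7 were higher and 8 lower in MCF10AT1 against MCF10A, and 5 higher and 13 lower in MCF10Ca1a against MCF10A, with a median of -0.52. Of all genes 29.8% were higher and 31.8% lower in the first comparison and 39% higher and 41.9% lower in the second. With limma on the 3 TPM scales 4 were higher and 10 lower in the first. RALGDS, an exchange factor for RAL that binds active RAS, was at 5.38, 9.30 and 18.7 mean TPM in the 3 lines and rose by a log2 change of 1.42 ± 0.06 SE over both steps (edgeR), and RGL2 of the same family rose by 1.02. RGL1, another member, fell by 1.82. PIK3CD, a catalytic subunit of PI3 kinase, fell from 2.23 to 0.19 mean TPM in MCF10Ca1a (-3.60 ± 0.13 SE); its value in MCF10AT1 against MCF10A was 0.26 on counts and -0.03 on the TPM scale.

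In the MAP kinase core of 6 genes, 1 was higher and 1 lower in MCF10AT1 against MCF10A, and 2 were higher and 3 lower in MCF10Ca1a against MCF10A, with a median of -0.04, beside 29.8% of all genes higher and 31.8% lower in the first comparison and 39% higher and 41.9% lower in the second. With limma on the TPM scales both calls of the first comparison were lost, and 3 genes were higher and 1 lower in the second. MAP2K2, encoding the kinase MEK2, rose from 86.7 to 173 mean TPM in MCF10Ca1a (edgeR log2 change 0.85 ± 0.06 SE), and MAPK3, encoding ERK1, rose by 0.31. RPS6KA3, encoding the ERK-dependent kinase RSK2, was at -0.47 on counts but at 0.22 on length-scaled counts and 0.37 on the TPM scale, so it has no direction here.

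Known output genes of ERK signalling were mostly higher in MCF10AT1, where 8 of 10 tested were higher and 2 lower than in MCF10A (median log2 change 0.67 beside 0.00 over all genes, of which 29.8% were higher and 31.8% lower). At the second step 4 were higher and 5 lower, with a median of -0.33, where 38% of all genes were higher and 40.3% lower, and over both steps 4 were higher and 4 lower, or 2 lower with limma on log2(TPM + 1) without a filter. DUSP4 rose at each step (edgeR log2 changes 1.12 ± 0.06 SE and 0.58 ± 0.06 SE), from 37.8 to 73.6 and 133 mean TPM. EPHA2, an ephrin receptor, rose from 35.4 to 47.9 and 436 mean TPM (0.58 and 2.92). SPRY2, a feedback inhibitor of receptor signalling, was higher in MCF10AT1 (0.75) and fell in MCF10Ca1a to 15.1 mean TPM (-1.19 against MCF10AT1). ETV5, an ETS transcription factor, was lower in MCF10AT1 (-0.25, edgeR adjusted p = 0.00192) and changed by -0.09 from there (adjusted p = 0.20). The second change was called on length-scaled counts (-0.23, edgeR adjusted p = 0.017), scaled counts (-0.22, adjusted p = 0.024), without the filter (-0.17, adjusted p = 0.014) and without MCF10A replicate 1 (-0.0995, adjusted p = 0.037).

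**Figure D5:**
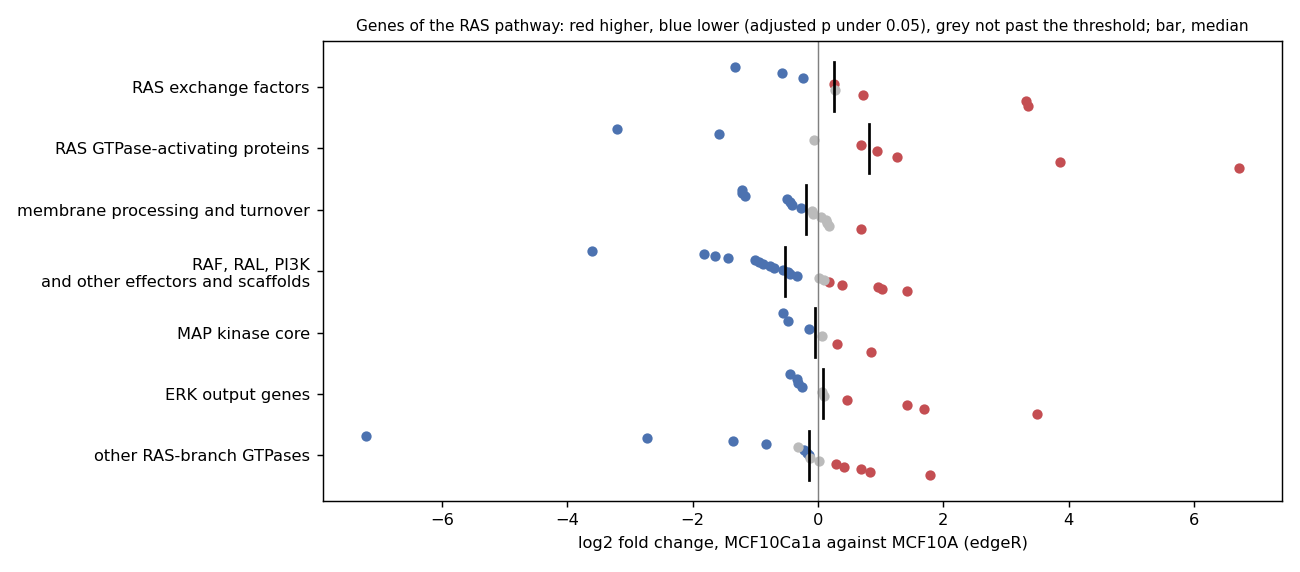
Log2 fold changes in MCF10Ca1a against MCF10A (edgeR) of the tested genes of 7 lists around RAS, 1 point per gene, with the list's median as a bar; red is higher and blue lower at an adjusted p under 0.05. Every list holds genes on either side of 0, and the medians run from -0.52 for the effectors to 0.81 for the GTPase-activating proteins.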

How the data were processed

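Gene expression was measured by stranded mRNA sequencing in 9 libraries of 3 cell lines, grouped by the line named in the labels. The authors deposited estimated counts and TPM per gene and per transcript, and, in 2 further tables, gene counts that their file names describe as scaled, in 1 case with transcript length. The submitters' processing notes name Salmon and hg38, with no version; the annotation release is not given in the sources used here. Positions, transcript structures and sequences came from GENCODE 29 (GRCh38), which held 17168 of the 17910 genes tested.

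Deposited estimated counts were rounded and filtered with filterByExpr (minimum count 10, minimum total 15). The test was edgeR's quasi-likelihood test (edgeR 4.0.16, R 4.3.3) with TMM, all 9 libraries in 1 fit and Benjamini-Hochberg adjustment at 0.05. Transcript levels were tested the same way. Transcript shares were tested with limma 3.58.1 on log2 ratios of the deposited TPM (pseudocount 0.1; gene at 1 TPM or more in each line, transcript at 0.5 TPM or more). Fold changes with limma on log2(TPM + 1) understate changes of low genes. Alternatives included DESeq2 1.42.0, other count tables, TPM and leaving out each library. Each test was also run on simulated data with known changes. Of changes of log2 size 1, edgeR on genes recovered 64 of 70 (91.4%). On transcripts edgeR recovered 35 of 68 (51.5%), and the share test 14 of 68 (20.6%). For changes of log2 size 2 the share test recovered 63 of 72 (87.5%). Small changes of transcripts and shares can therefore be missed.

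The RAS genes and the gene lists were chosen with earlier results of these data known. The text names, of each list, up to 2 of the largest rises and falls in MCF10Ca1a against MCF10A with an adjusted p under 0.05 and at least 10 mean counts in the higher line; transcripts with 5% or more of their gene in a line; the 3 most alike genes; and the nearest tested neighbours. Some genes that this rule names are not reported here. The exon shares of HRAS, with and without HRAS-205, and the sums of RRAS2 transcripts were chosen after the data were seen.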

Additional observations from a re-analysis of the deposited data

How the results depend on the processing

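Of the 20 log2 changes and step differences of the RAS genes, those of RRAS and MRAS kept their direction and their side of the threshold under all alternatives run, and so did all 20 when any library was left out, except the direction of the NRAS difference between the steps, which ran from -0.0656 to 0.0491 and never passed the threshold. With limma on log2(TPM + 1), log2(TPM + 0.1) and log2(TPM + 1) without a filter, in that order, NRAS in MCF10Ca1a against MCF10AT1 turned to 0.0631, 0.064 and 0.0631; the NRAS difference between the steps passed the threshold (0.42, 0.42 and 0.42); the HRAS difference between the steps no longer did (-0.21, -0.22 and -0.21), nor did RRAS2 in MCF10AT1 against MCF10A (0.12, 0.12 and 0.12). The same scales gave -0.0261, -0.0356 and -0.0261 for PIK3CD and -0.0327, -0.037 and -0.0327 for PRR12 in MCF10AT1 against MCF10A, 0.19 and 0.26 for DENND2C in MCF10Ca1a against MCF10A (filtered only), and for RPS6KA3 0.47, 0.49 and 0.47 against MCF10AT1 and 0.37, 0.38 and 0.37 against MCF10A. Length-scaled and scaled counts gave 0.0205 and 0.0203, 0.20 and 0.21, and 0.22 and 0.23 for RPS6KA3 in the 3 comparisons. The causes were not tested. On log2(TPM + 1), 35.8% of all calls were higher in MCF10AT1 against MCF10A in place of 48.4%, 61.7% in MCF10Ca1a against MCF10AT1 in place of 48.5%, and 66.5% in the difference between the steps in place of 45.7%.

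Transcript shares called in MCF10AT1 against MCF10A went from 1321 to 3429 with TPM + 1 and 701 with transcripts from 0.1 TPM, and in MCF10Ca1a against MCF10AT1 from 10475 to 16449 with TPM + 1. Same-numbered libraries did not deviate together (correlations from -0.060 to 0.045, and from -0.074 to 0.095 for the other pairs). No large shared effect was seen, but with 3 libraries per line this cannot exclude a pairing. With the replicate block 237 shares were called in MCF10AT1 against MCF10A, and the gene calls for the 5 RAS genes held. In that comparison the transcripts NRAS-201 (-0.22, edgeR adjusted p = 0.0504) and RRAS2-201 (0.31, adjusted p = 0.078) missed the threshold. So did the share of HRAS-205 (limma adjusted p = 0.082) and the gene PRR12 (0.17, edgeR adjusted p = 0.055). Leaving out 1 library gave 453 to 1217 shares in MCF10AT1 against MCF10A, 6914 to 9999 in MCF10Ca1a against MCF10AT1, and 6851 to 9801 transcripts called in MCF10AT1 against MCF10A. The first count fell by over 1.5 times without any 1 of the 6 libraries compared, the second without MCF10AT1 replicate 1 or 3, and the last without MCF10A replicate 2 or MCF10AT1 replicate 1 or 2. MCF10Ca1a had 32930503 to 35243012 counts per library, and its 5, 3 and 5 MRAS counts limit what can be said of MRAS transcripts there.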

Other observations

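Other GTPases of the RAS branch were also scattered. Of 26 listed, 15 were tested by edgeR, of which 5 were higher and 5 lower in MCF10AT1 against MCF10A, 4 higher and 5 lower in MCF10Ca1a against MCF10AT1, and 5 higher and 7 lower in MCF10Ca1a against MCF10A, with a median log2 change of -0.14 in the last. Of all genes tested, 29.8%, 38% and 39% were higher and 31.8%, 40.3% and 41.9% lower in these comparisons. With limma on the 3 TPM scales 7 or 8 were higher in place of 4 in the second comparison, and 4 were lower in place of 7 in the last. RIT1, a close relative of RAS that also binds RAF, was lower in MCF10AT1 (-0.71) and then rose in MCF10Ca1a (1.54 against MCF10AT1), at 15.7, 8.14 and 29.9 mean TPM in the 3 lines. This course is opposite to that of RRAS2. GEM, a GTPase of the RGK group, rose in MCF10Ca1a against MCF10A (1.79) but stayed at 0.53 TPM or less in every library. RASL11A fell by 2.73 on the log2 scale, from 1.86 to 0.695 mean TPM. RASL11B had a mean of 585 counts per library in MCF10A, 1.33 in MCF10AT1 and 2.00 in MCF10Ca1a, so that its loss came at the first step while that of MRAS came at the second.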
